A study of Homo sapiens with 24 samples.

Results

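The 3 day 14 libraries of control line 2 were compared with the 3 day 14 libraries of control line 1, chosen by their labels, which makes 6 of the 24 libraries of the series. Both lines derive from H7, an established human embryonic stem cell line, and carry no labelled edit, and both had been differentiated for 14 days along a ventral neural route to progenitors. The same lines at day 0, undifferentiated, and the 2 BRAT1 knockout lines of H7 at day 14 are given beside them, each line with 3 biological replicates lettered A to C. The labels call the control lines by number only: they do not say whether each is a single clone, how it was made, or what separates its replicates, so the p-values measure the spread between those replicates. Poly(A) RNA was made into Click-Seq libraries, in which the sequencing adapter is joined by click chemistry, and reads were counted per gene.

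Sister lines of one stem cell line start from the same genome and can come to differ at individual genes, through inherited states of DNA methylation and chromatin or through copy number changes acquired in culture. Such differences are usually carried by all cells of a line, so a gene may be read in one line and be silent in its sister. Genes with little role in neural progenitors, such as olfactory receptors, which are normally used by sensory neurons of the nose, are silent in most cells.

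The 6 libraries held between 2228736 and 3682807 counts, the lowest in replicate C of control line 2, and between 21309 and 25247 of 61248 features had a count. BRAT1, the gene targeted in the knockout lines, held 900, 868 and 836 counts in control line 1, against 803, 1077 and 414 in control line 2. In the knockout libraries it held 30, 21 and 63 counts in line 1, against 248, 227 and 262 in line 2, all below every control library. BRAT1 did not differ between the control lines in the edgeR test (log2 fold change of line 2 over line 1 -0.14, SE 0.16, adjusted p = 0.975). At day 0 BRAT1 had 0 to 10 counts in every library and checks no label there. The day 0 control libraries were smaller, with 1407832 to 2059467 counts and 9299 to 15116 features with a count. A count of 0 at day 0 may therefore reflect detection.

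Counts under a name often hold reads of the gene on the other strand. Of 1775 pairs of an antisense-named feature and the coding gene it overlaps, 1280 (72.1%) had more counts under the antisense name. The share of pair counts under the coding name was 18.4 to 19.4% in line 1 and 18.8 to 19.1% in line 2. TALAM1, antisense to MALAT1, held 6.05 to 11.1% of a library's counts, and MALAT1 held 0.00436 to 0.00755%. Over the pairs as a whole, most counts thus lay under the antisense name. For the features that differed between the lines, a gene with at least 100 bases of exon on the other strand is named with the feature. For a single feature, which of the 2 was transcribed cannot be told apart from its counts. In bulk RNA, fewer cells of a type and less RNA per cell cannot be told apart either.

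At day 14 few features differed between the 2 control lines, most of them by large factors. Of 11479 features tested, 28 passed an adjusted p of 0.05, which is 0.244%. Control line 2 was higher for 24 of them (0.209% of all tested) and lower for 4 (0.0348%). At an unadjusted p under 0.05 there were 663 (5.78%). In all 28 the 3 libraries of one line lay above the 3 of the other. Selection by adjusted p favours such a gap, and its share over all features tested was not counted, so it is no added support. Of the 28, 26 were at least 2-fold, 23 at least 4-fold and 15 at least 16-fold. In the higher line 20 of the 28 were under 50 CPM (the count scaled to the library total), and the share over all features tested was not counted. The number of features passing was 57 without replicate C of control line 2, 86 with no filter on low counts, 16 with all 12 day 14 libraries in the fit and 18 when tested against a 2-fold change. Of the 28, 11 passed under every alternative that tested them, the 2-fold test included, among them TSPAN10, URAHP, CHL1-AS1, KCNH8, OR8D1 and C2orf81. A further 2, TAB3-AS2 and ENSG00000279694, passed under every alternative except the 2-fold test.

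**Figure D1:**
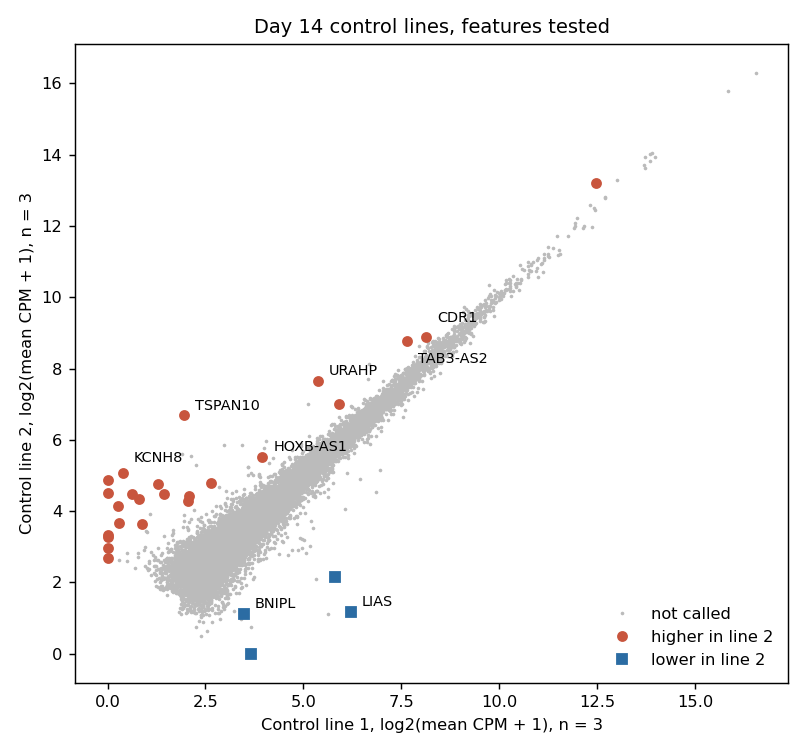
Mean CPM of each feature tested in control line 1 (x axis) and control line 2 (y axis) at day 14, both as log2(mean CPM + 1) over 3 libraries. Grey points did not pass the edgeR test, red circles are the 24 features higher in line 2 and blue squares the 4 lower. Of the 28, 12 lie at the left edge, under 1 on the x axis, and the 4 blue squares lie below the diagonal.

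By annotated type, 11 of the 28 (39.3%) were protein coding, beside 63.8% of all features tested, and 6 (21.4%) were pseudogenes, beside 4.49%. A further 6 (21.4%) were antisense genes, beside 19.6%. An exon on the other strand was annotated for 15 of the 28, beside 49.6% of all features tested. On chromosome 11 there were 5, all in one stretch of olfactory receptor genes.

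Some features had counts in every library of one line and almost none in the other. Counted as off in a line with at most 3 counts summed over its 3 libraries, and as on with at least 10 counts in each library of the other line, 11 features were on in line 2 and off in line 1 (0.018% of all 61248) and 2 were on in line 1 and off in line 2 (0.00327%). These features were chosen on this contrast, so their values describe them and are no test. Of the 13, 10 were among the 28. FAM90A20P was tested and did not pass, and OR8B10P and RTTN were below the filter on low counts. A count of 3 over a line corresponds to 0.301 CPM in line 1 and 0.323 CPM in line 2. Against that floor, CHL1-AS1 was at least 95-fold higher in line 2, and the intervals given below cover counting error only.

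Promoter windows of RefSeq were looked up for the 31 features that passed the test or were on in only one line, and 13 had an entry. A window runs from 250 bases before to 50 bases after the start in RefSeq, which for TSPAN10 and OR8B12 lies inside the GENCODE 29 gene bounds given here. The dinucleotide CG, which reads the same on both strands and is the main site of DNA methylation, was counted in each as a description, since methylation was not measured here. The 4 sequences shown are examples from both sides of the median of all windows: 2 genes that were off in line 1 with CG-rich windows, and 2 genes with CG-poor windows, one of them from the olfactory receptor stretch. CG is in capitals, and each window is given 5′ to 3′ on the strand of the gene on GRCh38.p14.
C2orf81, minus strand, chr2:74421570-74421869: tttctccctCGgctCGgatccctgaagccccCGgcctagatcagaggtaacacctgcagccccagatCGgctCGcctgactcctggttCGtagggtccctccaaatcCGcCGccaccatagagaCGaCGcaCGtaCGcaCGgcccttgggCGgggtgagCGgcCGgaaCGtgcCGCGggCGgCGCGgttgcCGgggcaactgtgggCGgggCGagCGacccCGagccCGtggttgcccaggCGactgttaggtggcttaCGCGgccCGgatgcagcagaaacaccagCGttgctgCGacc
KCNH8, plus strand, chr3:19148260-19148559: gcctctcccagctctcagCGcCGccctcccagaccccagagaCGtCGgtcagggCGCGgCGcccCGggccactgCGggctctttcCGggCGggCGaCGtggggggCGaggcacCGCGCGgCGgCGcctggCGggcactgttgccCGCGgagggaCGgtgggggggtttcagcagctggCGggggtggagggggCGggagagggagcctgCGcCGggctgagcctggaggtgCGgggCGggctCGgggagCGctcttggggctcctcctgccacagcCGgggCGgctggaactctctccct
TSPAN10, plus strand, chr17:81642055-81642354: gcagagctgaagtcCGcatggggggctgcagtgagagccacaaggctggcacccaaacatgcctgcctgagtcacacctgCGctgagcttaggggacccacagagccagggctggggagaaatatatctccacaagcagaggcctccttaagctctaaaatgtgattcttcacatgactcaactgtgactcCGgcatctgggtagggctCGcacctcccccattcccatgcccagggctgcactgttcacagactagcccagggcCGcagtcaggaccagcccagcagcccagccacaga
OR8B12, minus strand, chr11:124543605-124543904: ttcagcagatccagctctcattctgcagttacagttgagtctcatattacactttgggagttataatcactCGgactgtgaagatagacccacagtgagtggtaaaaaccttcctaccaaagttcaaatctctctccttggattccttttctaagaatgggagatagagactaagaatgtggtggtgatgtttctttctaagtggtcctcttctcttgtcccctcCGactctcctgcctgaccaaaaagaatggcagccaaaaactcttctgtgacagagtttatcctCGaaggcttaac

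The C2orf81 window held 34 CG, and 15.6% of all 35116 RefSeq windows of this length held at least as many. The KCNH8 window held 33 (17.2% held at least as many). The TSPAN10 window held 5 (70.4%) and that of OR8B12 held 3 (81.8%). Over the 13 matched features the number ran from 1 to 37 with a median of 5, beside a median of 14 over all windows. Under the names of genes off in line 1 there were thus both CG-rich and CG-poor windows. Each window is that of the named gene, while the counts may read the other strand. The RefSeq starts of TSPAN10 and OR8B12 lie inside the gene bounds, so their windows may not be the promoters used. A link between CG and the on or off state was not tested.

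KCNH8 encodes a voltage-gated potassium channel of the ether-a-go-go family and lies on chromosome 3 (plus strand, 19148454 to 19535646, GRCh38). It held 115, 77 and 96 counts in control line 2, against 0, 3 and 0 in control line 1, a ratio of 103 (exact 95% counting interval 34.9 to 502, adjusted p = 3.89e-06). The knockout libraries held 0, 3 and 1 counts in line 1, against 0, 6 and 0 in line 2, so control line 2 stood apart from the other 3 lines. No control library at day 0 held a KCNH8 count, at the lower depth of that day.

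C2orf81, a protein-coding gene of little known function on chromosome 2 (minus strand, 74414176 to 74421591), held 30, 33 and 21 counts in control line 2 and none in line 1, at least 30-fold higher (adjusted p = 0.000988). The knockout libraries held 0 to 11 counts. At day 0, C2orf81 held 35, 153 and 79 counts in control line 2 and again none in line 1 (unadjusted p = 8.58e-05, adjusted p = 0.206). The 2 control lines did not overlap on either day. In the day 0 knockout libraries it held 0, 38 and 2 counts in line 1, against 0, 3 and 0 in line 2, so one library of knockout line 1 reached the range of control line 2.

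CHL1-AS1 lies opposite an exon of CHL1, a neural cell adhesion molecule of the L1 family, on chromosome 3 (minus strand, 363370 to 385795). It held 121, 81 and 64 counts in control line 2 and none in control line 1 (adjusted p = 2.77e-07). Here it was control line 1 that stood apart: the knockout libraries held 87, 40 and 72 counts in line 1, against 34, 78 and 77 in line 2. Under the name CHL1 itself there were only 3 to 6 counts per library in line 1 and 0 to 11 in line 2. No control library at day 0 held a CHL1-AS1 count, again at lower depth.

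ENSG00000229689, a transcribed pseudogene on chromosome 2 (plus strand, 95525345 to 95532405) opposite the long noncoding RNA AC009237.14, held 74, 73 and 54 counts in control line 2 and none in line 1, at least 71.8-fold higher (adjusted p = 1.89e-06). It had no count in any of the 6 knockout libraries of day 14. At day 0 it held 3, 0 and 36 counts in control line 2 and none in the other lines. Reads of pseudogenes can be shared with near-identical copies, so the levels of the pseudogenes named here are uncertain.

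The largest group was a stretch of olfactory receptor genes of family 8 on chromosome 11, from 124302831 to 124545333, a length of 243 kb. Each receptor gene of this family encodes a G protein-coupled odorant receptor, and many family members are pseudogenes. Of its features 5 passed, all higher in line 2: OR8D1, OR8B7P, OR8B5P, the long noncoding RNA ENSG00000285561 and OR8B12. All 5 are annotated on the minus strand. Of the 17 minus-strand features of the stretch, 15 had a count in control line 2 and 6 in control line 1.

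Summed over the 17 minus-strand features, control line 2 held 329, 304 and 246 counts in its 3 libraries and control line 1 held 8, 0 and 15. The 2 plus-strand features of the stretch, OR8A2P and OR8A3P, had no count in any of the 24 libraries. The knockout libraries held 6, 27 and 58 counts in line 1, against 11, 19 and 24 in line 2. All 6 knockout libraries were below every library of control line 2, and 4 of them were above every library of control line 1. At day 0 the sums were 12, 11 and 0 in control line 2, and control line 1 had none. Because the deposited counts often read the strand opposite to a name, the strand on which the stretch was read is uncertain.

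Within the stretch, OR8D1 held 88, 53 and 55 counts in control line 2, against 0, 0 and 5 in control line 1 (log2 fold change 5.29, SE 0.73, adjusted p = 0.000678). OR8B12, at the far end, held 26, 27 and 25 counts and none in line 1, at least 27.9-fold higher (adjusted p = 0.00156). With all 12 day 14 libraries in one fit, neither OR8B12 (adjusted p = 0.156) nor OR8B7P (0.0851) passed. OR8B12 had no count in any day 14 knockout library. OR8B7P held 42, 26 and 36 counts against 0, 0 and 2, a ratio of 55.7 (exact 95% counting interval 15 to 466). ENSG00000285561 held 55, 58 and 41 counts against 1, 0 and 1, a ratio of 82.5 (22.5 to 688). Both met the rule for on and off, so their gap in counts from control line 1 in every library follows from that choice.

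OR8B5P held 61, 74 and 44 counts against 0, 0 and 7 (log2 fold change 4.67, adjusted p = 0.00607), and it did not pass in DESeq2 (adjusted p = 0.35). OR8B10P held 10, 21 and 18 counts in control line 2 and none in line 1, at least 17.5-fold higher, and none in the day 14 knockout libraries. A neighbour did not share the pattern of control line 2: OR8B6P had 8, 18 and 4 counts there, 6, 0 and 0 in line 1, and 3, 19 and 29 in knockout line 1. The next feature past OR8B12, OR8A1, had a summed count of 1 in control line 1 and 4 in control line 2. SIAE, a sialic acid esterase gene further out (124633113 to 124695707), held 1608 to 2469 counts in the 6 control libraries of day 14.

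**Figure D2:**
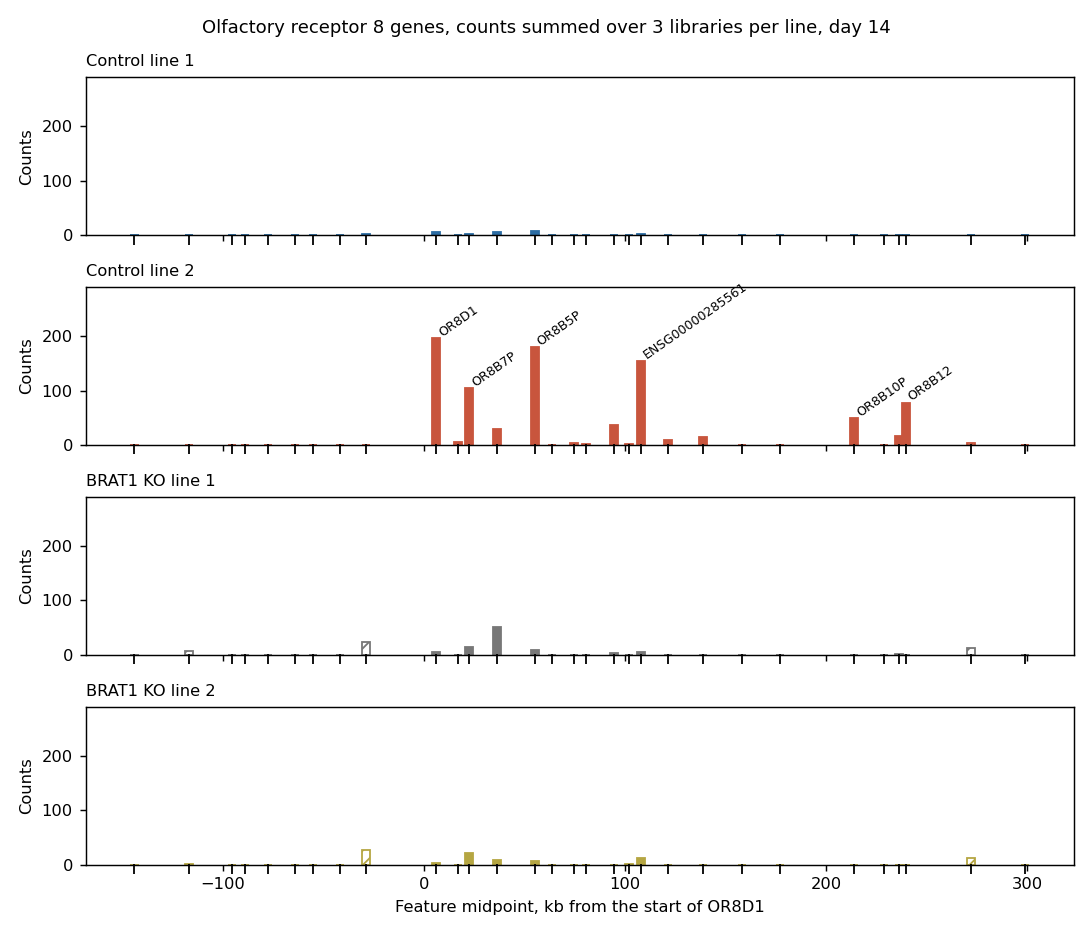
Counts of each feature summed over the 3 day 14 libraries of a line (y axis, linear from 0), against the distance in kb of its midpoint from the start of OR8D1 (x axis), in 1 panel for each line. Filled bars are minus-strand and hatched bars plus-strand features, and ticks below the axis mark every feature. Control line 2 has tall bars from OR8D1 to OR8B12, and the other 3 lines have few counts there.

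A second pair of neighbours was on in line 2 on chromosome 5, plus strand. NPY6R, a pseudogene of the neuropeptide Y receptor family (137801193 to 137810751), held 12, 25 and 22 counts in control line 2 and none in line 1, at least 21.1-fold higher (adjusted p = 0.0143). MYOT, which encodes the sarcomere protein myotilin (137867791 to 137887851) and lies opposite AC106791.1, held 16 counts in each library of control line 2 and none in line 1, at least 17.1-fold higher (adjusted p = 0.05, just under the threshold). The knockout libraries held no NPY6R count and a single MYOT count. Both rest on few counts: with 1 library left out, NPY6R did not pass in 5 of 6 fits, and MYOT failed in all 6. FAM90A20P on chromosome 8 held 25, 15 and 10 counts in line 2, against 0, 0 and 2 in line 1, a ratio of 26.8 (7.04 to 227), with adjusted p = 0.217.

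On in control line 1 alone were ENSG00000267372 and RTTN. ENSG00000267372, a long noncoding RNA on chromosome 19 (plus strand, 1321225 to 1322846), held 34, 28 and 53 counts in line 1 and none in line 2, at least 35.8-fold lower in line 2 (adjusted p = 0.00034). The knockout libraries held 24 to 58 counts, so control line 2 again stood apart from the other 3 lines. RTTN, which encodes the centriole protein rotatin, held 10, 10 and 14 counts in line 1, against 1, 1 and 0 in line 2, a ratio of 15.9 (4.07 to 136). RTTN varied within the knockout lines, at 0, 15 and 19 counts in line 1, against 28, 17 and 44 in line 2.

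Other features were present in both lines at very different levels. TSPAN10, a tetraspanin membrane protein gene on chromosome 17 (plus strand, 81637171 to 81648749), held 260, 506 and 197 counts in control line 2, against 11, 11 and 7 in line 1. That is 102.8 CPM ± 41.0 against 2.90 ± 0.60 (SD, n = 3 each; log2 fold change 5.10, SE 0.32, adjusted p = 1.12e-09). The knockout libraries ran from 0.73 to 4.45 CPM, around the level of control line 1 and below every library of control line 2. At day 0 TSPAN10 held 7, 2 and 0 counts in control line 2, against 13, 1 and 16 in line 1, with no gap between the lines.

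URAHP, a pseudogene of a urate pathway enzyme on chromosome 16 (minus strand, 90039761 to 90047773), overlaps exons of GAS8, a subunit of the ciliary dynein regulatory complex. It was at 201.6 CPM ± 21.95 in control line 2 and 40.3 ± 2.13 in line 1 (SD, n = 3 each; log2 fold change 2.30, SE 0.17, adjusted p = 1.39e-08). The knockout libraries, at 14.5 to 34 CPM, were below both. At day 0 it held 136, 168 and 289 counts in control line 2, against 48, 62 and 84 in line 1, again with no overlap (unadjusted p = 0.0129, adjusted p = 1). Under its own name GAS8 did not pass (log2 fold change 0.33, adjusted p = 0.955).

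TFPI, which encodes an inhibitor of the tissue factor pathway of blood clotting and lies opposite the antisense gene AC007319.1, held 70, 38 and 74 counts in control line 2, against 6, 5 and 6 in line 1 (log2 fold change 3.59, SE 0.53, adjusted p = 0.000649), and did not pass with all 12 day 14 libraries in one fit (adjusted p = 0.0616). The knockout libraries held 0 to 11 counts. Also on chromosome 2, the processed pseudogene ENSG00000213115 (plus strand, 188227189 to 188228382), opposite LINC01090, held 92, 96 and 55 counts against 3, 10 and 1 (log2 fold change 4.15, SE 0.53, adjusted p = 0.000117) and 0 to 9 in the knockout libraries. At day 0 ENSG00000213115 held 160, 46 and 46 counts in control line 2 and none in line 1 (unadjusted p = 0.000131, adjusted p = 0.206). TFPI at day 0 held 64, 35 and 15 against 10, 18 and 0, which overlap.

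A large fall was seen under the name LIAS, lipoic acid synthetase, on chromosome 4 (plus strand, 39458587 to 39485109), which overlaps 363 bases of exon of RPL9, a ribosomal protein gene on the other strand. It held 299, 260 and 174 counts in control line 1, against 4, 3 and 4 in line 2 (73.1 CPM ± 14.6 against 1.26 ± 0.48, SD, n = 3 each; log2 fold change -5.90, SE 0.36, adjusted p = 1.11e-09). The knockout lines lay mostly near control line 2, at 10, 9 and 30 counts in line 1, against 171, 14 and 15 in line 2, with replicate A of knockout line 2 near control line 1. With all 12 day 14 libraries in one fit, LIAS no longer passed (adjusted p = 0.236). The counts under RPL9 did not pass (log2 fold change -0.98, SE 0.55, adjusted p = 0.883).

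ENSG00000286212, which was not placed in GENCODE 29, held 186, 186 and 173 counts in control line 1, against 11, 13 and 8 in line 2 (log2 fold change -3.99, SE 0.32, adjusted p = 4.02e-08). The knockout libraries, at 59.1 to 82.2 CPM, were level with or above control line 1 (55.0 ± 4.08, SD, n = 3). At day 0 it held 20, 10 and 14 counts in control line 1 and none in control line 2 (unadjusted p = 0.0103, adjusted p = 1). Knockout line 1 had none at day 0 and knockout line 2 had 16, 54 and 5. BNIPL, a gene of the BNIP2 family, held 38, 32 and 31 counts in line 1, against 7, 4 and 1 in line 2 (log2 fold change -3.00, adjusted p = 0.0471), a difference that did not pass when any 1 library was left out.

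The most abundant features that passed differed by small factors. ENSG00000279694, which lies opposite exons of CRABP1, a cytosolic retinoic acid binding protein of the developing hindbrain and neural tube, was at 9454 CPM ± 521 in control line 2 and 5653 ± 671 in line 1 (SD, n = 3 each; log2 fold change 0.73, SE 0.11, adjusted p = 0.000649). In the knockout libraries it was at 2720 to 3130 CPM, below both control lines. Under its own name CRABP1 did not pass (log2 fold change 0.49, adjusted p = 0.884). CDR1, opposite LINC00632 on the X chromosome, was at 475.0 CPM ± 24.2 against 280.3 ± 5.90 (log2 fold change 0.75, SE 0.13, adjusted p = 0.00365), and the knockout libraries, at 395 to 558 CPM, were with control line 2. CDR1 did not pass in 3 of the 6 fits that left out 1 library.

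TAB3-AS2, opposite TAB3, a gene of the TAK1 kinase pathway on the X chromosome, was at 435.4 CPM ± 25.1 in control line 2 and 199.5 ± 42.5 in line 1 (log2 fold change 1.12, SE 0.15, adjusted p = 0.000246). The knockout libraries ran from 180 to 271 CPM, with control line 1. ATP2C2-AS1, opposite a Golgi calcium pump gene, was at 127.9 CPM ± 11.4 against 59.5 ± 16.8 (log2 fold change 1.10, SE 0.21, adjusted p = 0.0108). It did not pass without replicate A of control line 1 (adjusted p = 0.136) or without its replicate C (0.0686).

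Further features were higher in line 2 from low levels. SURF6, which encodes a nucleolar protein, held 92, 95 and 19 counts against 10, 15 and 7 (log2 fold change 2.65, SE 0.49, adjusted p = 0.0101). It did not pass when either of replicates A and C of line 1 or A and B of line 2 was left out, with adjusted p up to 0.152. FBXO38-DT, opposite SPINK13, held 104, 62 and 73 counts against 17, 22 and 13 (log2 fold change 2.32, adjusted p = 0.00397). ENSG00000271551, opposite the chromatin remodelling gene ARID1B, had a log2 fold change of 2.52 (adjusted p = 0.0067), and ENSG00000244675, opposite LINC00884, one of 3.74 (adjusted p = 0.00678). Each of these 3 lost its call without replicate C of line 1 (adjusted p = 0.0686 for each).

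HOXB-AS1 was the one feature of the gene lists that passed. It lies opposite exons of HOXB3, a hindbrain patterning gene, on chromosome 17 (plus strand, 48543551 to 48551250), and held 133, 217 and 79 counts in control line 2, against 36, 54 and 52 in line 1 (log2 fold change 1.62, SE 0.31, adjusted p = 0.0116). The call was lost with all 12 libraries in one fit (adjusted p = 0.391) and in 4 of the 6 fits without 1 library. Under HOXB3 itself control line 2 was at 361, 516 and 391 CPM and line 1 at 213, 297 and 354, which do not overlap, though the difference did not pass (log2 fold change 0.54, SE 0.17, adjusted p = 0.447). In the knockout libraries HOXB-AS1 had 0 to 12 counts.

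**Figure D3:**
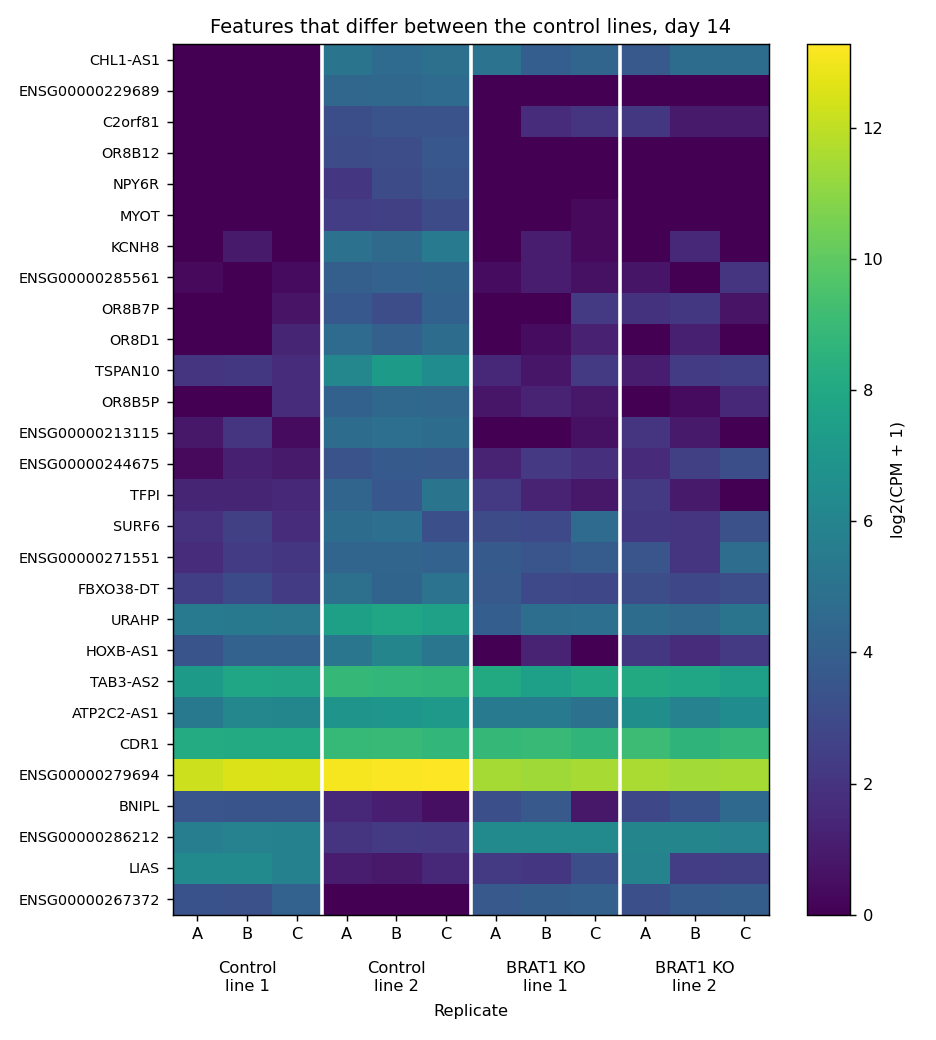
Level of each of the 28 features (rows, sorted by fold change of line 2 over line 1) in the 12 day 14 libraries (columns, 3 for each line), as log2(CPM + 1) from 0 (dark) to the highest value (yellow). In the upper rows control line 2 is bright and the other 3 lines are dark, except CHL1-AS1, which is dark in control line 1 only.

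Over the 28 features, the knockout lines lay more often on the side of control line 1. By the mean log2(CPM + 1) of a line, both knockout lines were nearer to control line 1 for 22 features and nearer to control line 2 for 4, which were LIAS, CHL1-AS1, CDR1 and ENSG00000271551. For SURF6 and ENSG00000244675 they were on different sides. Nearer does not mean alike: for HOXB-AS1, URAHP and ENSG00000279694 both knockout lines lay below both control lines. HOXB-AS1 was at 0.43 and 2.04 in the knockout lines, beside 3.92 and 5.48 in control lines 1 and 2. Control line 2 was the higher for 24 of the 28, so control line 1 was mostly the lower side. The placement over all features was not computed. The placement uses levels only and was not tested, and the control libraries that chose the features are the same that the knockouts are set against.

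At day 0, before differentiation, no feature passed the edgeR test between the same lines (0 of 5053, a share of 0%), with 97 at an unadjusted p under 0.05 (1.92%). DESeq2 passed 14 of 7810 features tested, and 2 of the 14 were among the 28 of day 14. The spread between replicates was wider at day 0, with a common coefficient of variation of 0.797 beside 0.321 at day 14. Of the 28, 9 could be tested at day 0 and 4 of those had an unadjusted p under 0.05: C2orf81, ENSG00000213115, URAHP and ENSG00000286212, each in its day 14 direction. Counting all 28, 12 had the day 14 direction at day 0, 9 the opposite and 7 equal means, so 42.9% had the same direction beside 47.4% of all features tested at day 14. The difference between days was not tested.

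No marker of the labelled cell type passed the test between the control lines. VIM-AS1, opposite the intermediate filament gene VIM, was at 5125 CPM ± 531 in line 1 and 6184 ± 844 in line 2 (SD, n = 3 each). PAX6, a neural progenitor transcription factor, was at 86.5 CPM ± 8.49 and 82.2 ± 14.6. NKX2-2-AS1, opposite the ventral factor gene NKX2-2, was at 546.2 CPM ± 126.9 and 848.2 ± 88.2. It was higher in every library of line 2, at 825, 946 and 774 CPM against 401, 605 and 633, and did not pass (log2 fold change 0.62, SE 0.15, adjusted p = 0.104). The stem cell gene POU5F1 was at 1.89 CPM ± 1.09 and 3.28 ± 0.48, beside 27.45 and 47.15 CPM at day 0. NANOG had 3 counts in line 1 and 0 in line 2 over the line, and was low at day 0 too (3.43 and 2.54 CPM). For the markers given under their own names here, PAX6 and SOX10 included, the strand that was read is uncertain. Their counts may therefore not be levels of the named genes. Under their own names, other genes of the pluripotency list went the other way. LIN28A was at 60.5 and 63.2 CPM, beside 11.8 and 10.6 at day 0. DPPA4 was at 8.17 and 13.4 CPM, beside 2.63 and 2.99. SOX10, a neural crest factor, was at 70.6 CPM ± 7.22 and 68.1 ± 17.5 in the control lines and at 4.76 ± 5.16 and 14.7 ± 4.78 in the knockout lines.

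Some markers of other cell types did not overlap between the lines, and how many of all features do so was not counted. TBXT, a mesoderm factor, held 14, 9 and 5 counts in line 1, against 0, 1 and 1 in line 2, and PECAM1, an endothelial adhesion molecule, held 9, 8 and 5 against 4, 0 and 1. Both were below the filter on low counts and were not tested. The 2 features tested opposite the mesendoderm list summed to 31.6 to 39.6 CPM in line 1 and 17.5 to 28 in line 2. They moved in opposite directions: ENSG00000276707 was at 30.5 and 16.5 CPM, and APOA1-AS at 5.2 and 7.2. Under its own names the mesendoderm list overlapped, at 16.8 to 26.6 and 7.63 to 27.4 CPM. The non-neural ectoderm list was at 69.8 to 84.6 and 86.7 to 109 CPM, without overlap. Lists of no cell type separated too, such as p53 targets, at 145 to 164 and 111 to 131 CPM. The summed neural crest list was at 145 to 201 CPM in line 1 and 163 to 213 in line 2, with 2 of its 15 genes at 0 in all 6 libraries. The mesenchyme list was at 198 to 231 and 118 to 240 CPM, with 4 of 16 at 0. The endothelium list was at 12.3 to 14.2 and 10.8 to 13.9 CPM, with 1 of 10 at 0. The midbrain and hindbrain list, which holds the HOXB genes, was at 341 to 507 and 496 to 644 CPM, with 13 of 42 at 0. Much of that sum was HOXB3, with means of 288 CPM in line 1 and 423 in line 2. EN2, of the same list, went the other way, with means of 69.3 in line 1 and 44.4 in line 2. Neither gene passed. The 13 members tested had a median log2 fold change of 0.09, so the list did not move as a whole. The part of these cell types in the 28 differences was not tested.

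The 25 gene lists covered these cell types, patterning, imprinted genes, genes known to vary among pluripotent lines, the recurrently gained 20q11.21 region, stress and metabolic pathways, the cell cycle, Integrator subunits, zinc finger genes and clustered protocadherins. Under their own names 0 of 434 members tested passed in edgeR, and among features opposite a member 1 of 230 passed, HOXB-AS1. The share over all features tested was 0.244%. The unadjusted p was under 0.05 for 27 of the 434 (6.22%) and for 30 of the 230 (13%), beside 5.78% of all features tested. Chosen after the values were seen, CCNA2, a cyclin of S phase and mitosis that lies opposite EXOSC9, was just short of the threshold (log2 fold change -0.78, SE 0.17, adjusted p = 0.0515), and so was KLRF2 (3.54, adjusted p = 0.0515). PCDHA6, a clustered protocadherin, held 59, 44 and 27 counts in line 2, against 15, 10 and 4 in line 1 (log2 fold change 2.23, adjusted p = 0.101).

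The chromosome medians lay close to 0. The median log2 fold change ran from -0.06 on X to 0.08 on chromosome 16 across the autosomes and X, beside -0.0039 over all features tested. In the 20q11.21 list, a region often gained in cultured stem cells, the 11 genes tested had a median of -0.53, and 0 passed. The 23 features tested between 31000000 and 34000000 on chromosome 20 had a median of -0.14, and none passed. No list was tested as a set, and the medians are descriptions.

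**Figure D4:**
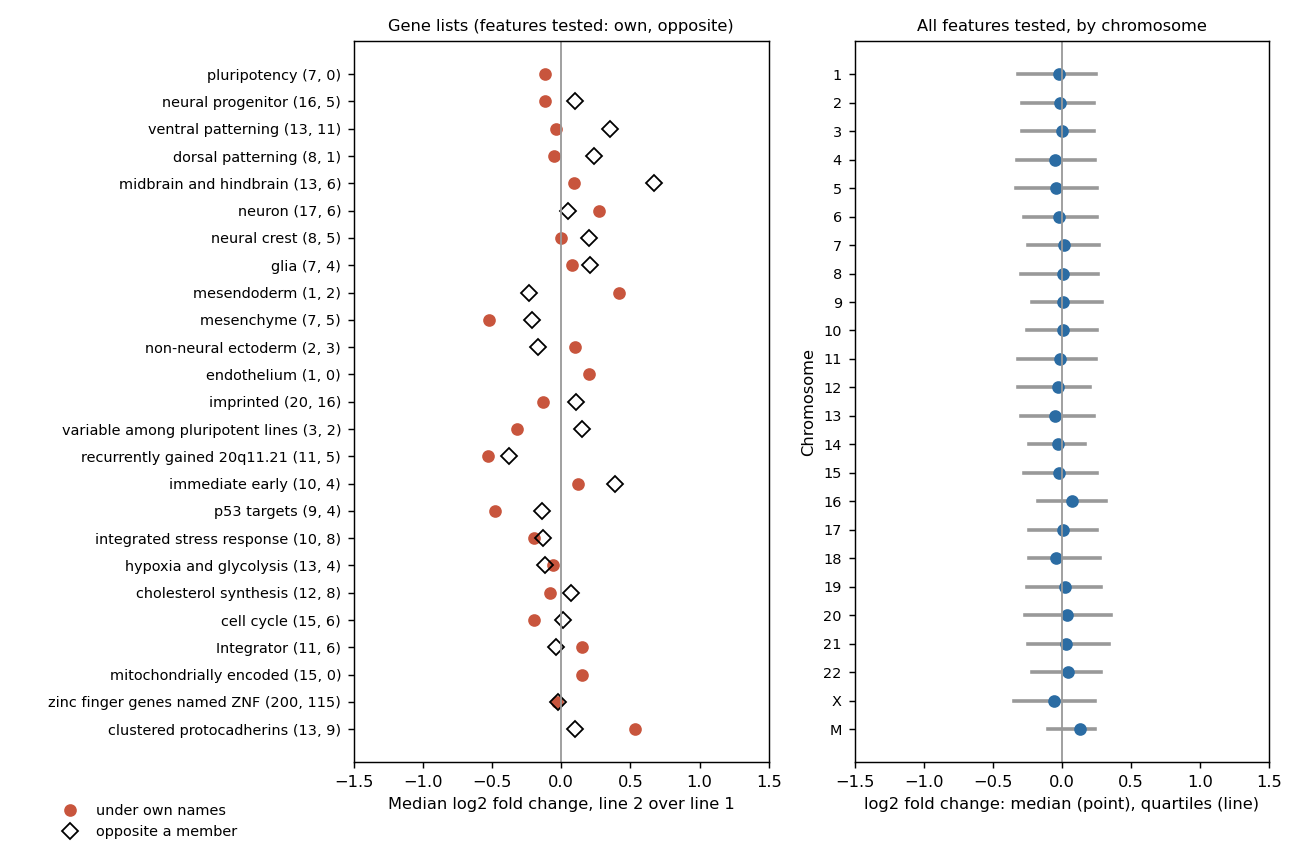
Left, median log2 fold change of line 2 over line 1 for each gene list, under the members' own names (red circles) and for features opposite a member (open diamonds), with the number of features tested in brackets. Right, median (point) and quartiles (line) of all features tested on each chromosome, where the medians of the autosomes and X lie between -0.06 and 0.08.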

How the data were processed

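The authors deposited raw counts of reads per gene, 1 table per library. Per the submitters' processing notes, they used bcl2fastq 2.20.0, STAR 2.7.9a on GRCh38, featureCounts of Subread 2.0.1, DESeq2 1.34.0 and R 3.5.1. For the annotation release and strand setting: not given in the sources used here. Names were matched to GENCODE 29 (57015 of 61248 features), and an opposite gene needed 100 bases of exon overlap. Promoter windows are from RefSeq on GRCh38.p14.

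Line 2 was tested against line 1 by edgeR 4.0.16 (quasi-likelihood F test, R 4.3.3), with TMM scaling, filterByExpr, robust fits and Benjamini-Hochberg adjusted p under 0.05, separately at each day, and tested on simulated data. Fold changes are line 2 over line 1. CPM is a count divided by the library total and scaled as usual. Each result was recomputed with RLE scaling, DESeq2 1.42.0, no filter, the replicate letter as a block, all 12 day 14 libraries, thinning, a 2-fold threshold and leaving out each library.

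Named features are BRAT1, those on in 1 line only (up to 12 each way), the 12 largest changes each way with mean CPM of at least 2, no overlap and a symbol, up to 4 passing members of each list, and runs of passing features; the remaining features that passed, and GAS8, RPL9, HOXB3 and CRABP1 as opposite genes, were added after their values were seen. Sex-chromosome genes that show a donor's sex are not named. The members and lists were chosen with earlier results of these data known. Replicates of a line differed by 5.45 to 15.8 in chi-square per degree of freedom, so none is one library deposited more than once.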

Additional observations from a re-analysis of the deposited data

How the results depend on the processing

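The count of 28 features between the control lines at day 14 was 34 in DESeq2, 27 with RLE scaling, 26 after thinning, 86 with no filter on low counts, 16 with all 12 day 14 libraries and 18 against a 2-fold change. Leaving out 1 library gave 21 to 57, the highest without replicate C of line 2. The count of 0 at day 0 was 14 in DESeq2 (758 at an unadjusted p under 0.05), 18 with no filter, and 0 to 1 with 1 library left out. These rest on unlike sets of features: DESeq2 tested 7810 and the edgeR fit with no filter 22056, beside 5053 in the main fit. Deviations of same-letter libraries had correlations of 0.037, -0.004 and 0.039 for letters A, B and C. Letters A and C of line 1 were best matched by their own letter in line 2, and B by C. Whether a letter marks a shared batch cannot be told from these. With the letter as a replicate block, 40 features passed at day 14, 27 of them among the 28, and 1 at day 0. The 13 features on in 1 line only became 40 with an off limit of 10 counts, 63 with an on limit of 5, 11 after thinning and 22 to 32 without 1 library. Of the 28, 17 lost their call in at least 1 alternative, the 2-fold test included (15 without it), and 0 changed direction, and the cause was not tested. Gene list members passing under their own names numbered 0 to 3. Depth limits the on and off calls, since a count of 0 over a line allows up to 3 counts at this depth.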
